A study of Homo sapiens with 3 samples.

Results

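The cell division engine was examined in the cultured human kidney cancer line RCC4, of the clear cell type and without working VHL, through 67 genes of the 60605 in the deposited table. They are the cyclins, the cyclin-dependent kinases (CDKs), the CDK inhibitors of the CDKN family, the E2F transcription factors and the retinoblastoma family, chosen by gene symbol alone. All 67 are protein-coding. The 3 libraries form 1 group: RCC4 cells carrying a lentiviral Cas9 vector, kept for 24 h in interferon gamma at 1000 U/mL with TNF at 25 ng/mL, each a biological replicate pooled from 3 flasks. No untreated library was analysed here. Every value therefore is a level in treated cells or a ratio within a library, and no response to the cytokines can be read from it.

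Cyclins bind and switch on CDKs, whose waves of activity carry a cell from growth through DNA replication to mitosis. D cyclins with CDK4 or CDK6, and then E cyclins with CDK2, phosphorylate the retinoblastoma protein and its relatives, which releases E2F factors to drive the genes of DNA synthesis. INK4 proteins block CDK4 and CDK6, CIP/KIP proteins act on the later complexes, and a separate set of cyclins and CDKs serves transcription instead of division. Clear cell renal carcinoma is known for high cyclin D1, a target of the hypoxia-inducible factors that VHL keeps down.

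The libraries held 26264283 to 33458691 reads assigned to genes. Levels are RPKM, counts per library size (CPM, scaled between libraries with TMM) per kilobase of annotated exon, given as mean ± SD over 3 libraries. A gene was detected at 1 CPM or more in every library. Replicate 1 stood apart: of 11266 detected genes, 12.1% and 14.7% differed over 2-fold between it and replicates 2 and 3, against 0.142% between replicates 2 and 3. Of 8 renal epithelial and carcinoma markers 8 were detected, their summed level running from 325 to 444 RPKM. The sum was uneven, with means from 1.455 RPKM for PAX8 to 147 RPKM for KRT8, and 95.7% of PAX8 exon length lies inside other genes. None of 5 leukocyte and 3 endothelial markers and 1 of 4 fibroblast markers was detected (summed levels at most 0.225, 0.0721 and 0.994 RPKM), and PTPRC, CD3E, LYZ and COL1A2 were listed at 0 reads.

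Most of the cell cycle machinery was present. Of the 67 genes 52 were detected (77.6%), against 51.4% of all 19861 protein-coding genes, and the median level over all 67 was 5.81 RPKM against 0.482 RPKM. The detected genes ran from 0.553 RPKM for CDK20 to 85.2 RPKM for CCNB1, and none reached 100 RPKM. Among detected genes alone the median was 9.85 RPKM, against 6.09 RPKM for protein-coding genes. With 1 group of bulk RNA, these levels give neither the share of dividing cells nor the RNA per dividing cell, and neither was measured.

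**Figure D1:**
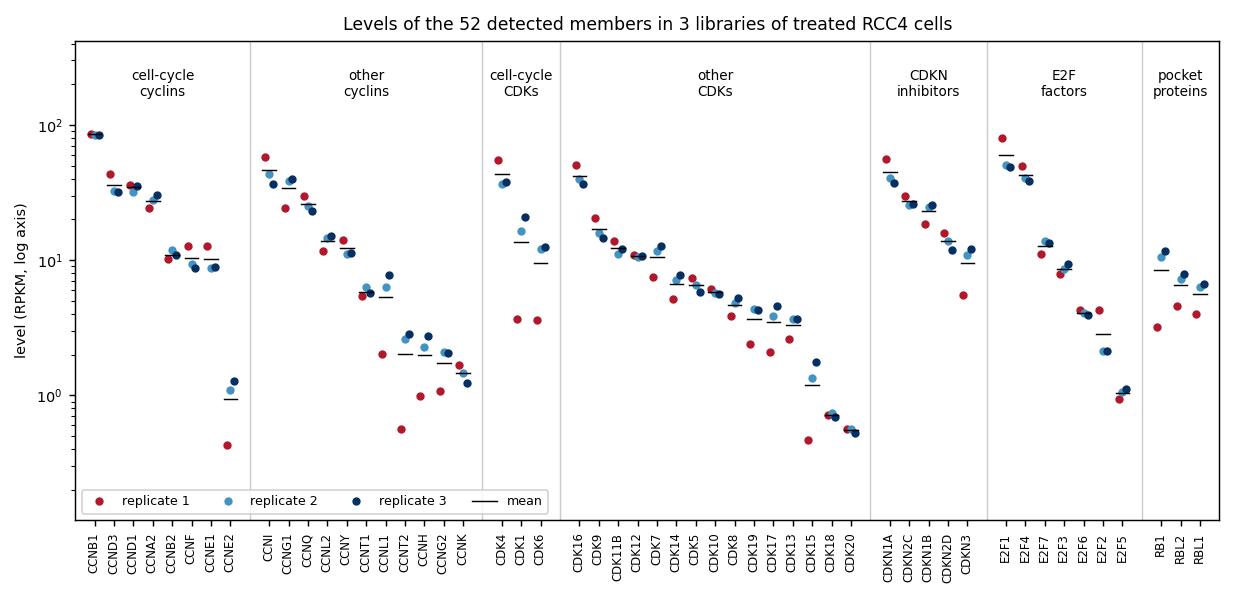
Each point is the level of 1 gene in 1 library (RPKM, log axis) for the 52 detected genes, grouped by role and ordered by mean within each group, with the mean of 3 libraries as a bar. CCNB1 is highest at 85.2 RPKM and CDK20 lowest at 0.553 RPKM, and the red points of replicate 1 lie far below the others for CDK1, CDK6, RB1, CCNT2 and CCNL1.

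The members that lay almost wholly inside the span of another gene had few or no reads. For 8 of the 67 genes at least 80% of the exon length lay inside other genes' spans in GENCODE 29, and 0 of these 8 were detected; over all protein-coding genes of that kind the share was 8.69%. Of the other 59 genes 52 were detected (88.1%, against 59.5% of such protein-coding genes). CDK2 (chr12:55966769-55972784, plus strand), the kinase of S phase, lies wholly within the span of PMEL on the opposite strand and was listed at 0 reads in each library. CDKN2A and CDKN2B (chr9:21967753-21995301 and chr9:22002903-22009363, minus strand), the INK4 genes of the 9p21 locus, lie wholly within the span of a gene on the other strand and were also listed at 0 reads. How the authors' counting treated reads that fall in overlapping genes is not known here, so for these genes an absent transcript and uncounted reads cannot be told apart. Shares of the D cyclin, INK4 and E2F families therefore cover only the genes with reads.

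The others listed at 0 reads and wholly inside another span were CCND2 (cyclin D2), CDK3, the repressor E2F8 and CCNJ. CDK11A, the eighth such gene, had 12, 17 and 35 reads in replicates 1, 2 and 3, while its neighbour and near copy CDK11B had 1305, 1053 and 1476. Of the 50-base words in the longest CDK11A transcript, 90.7% also occur in other genes, CDK11B among them, so the division of reads between them is uncertain. The genes that enclose these 8 had few reads themselves, from 0 to at most 31 in any library. PMEL had 24, 14 and 22 reads.

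A further 3 zeros fell outside that group. CCNC, cyclin C, which pairs with CDK8 and CDK19 in the Mediator complex, had no read in any library, and other genes span 9.16% of its exons. CCNI2 was listed at 0 reads with 78.4% inside, and CCNA1, the germ-line cyclin A, with no overlap at all. A count of 0 allows up to 3 reads, for CCNA1 a level of up to 0.046 RPKM, a limit that covers counting error only. Other genes that were not detected had a few reads: CDKN1C had 16, 13 and 20, CCNO had 8, 8 and 12, CCNB3 had 8, 8 and 0, and CCNP had 0, 4 and 7.

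**Figure D2:**
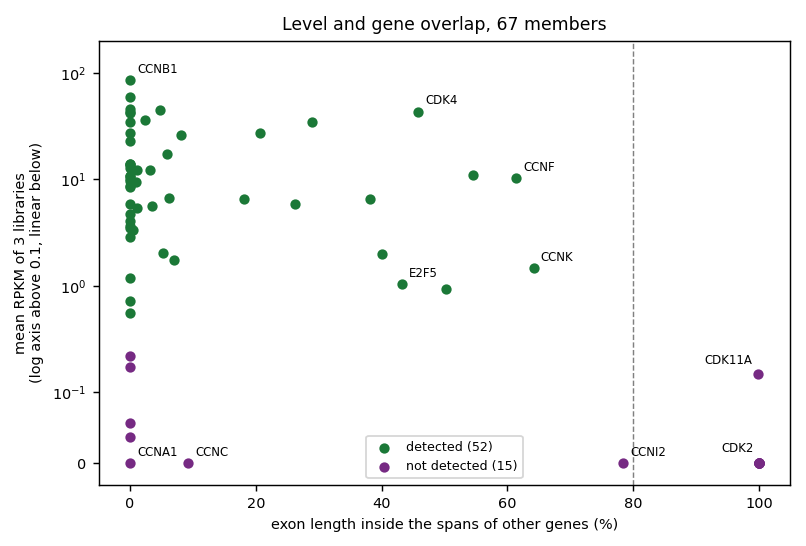
Each point is 1 of the 67 genes, placed on the x axis by how much of its exon length other genes span (%) and on the y axis by its mean level over 3 libraries (RPKM, log axis above 0.1 and linear below). No gene right of the dashed line at 80% was detected, while CDK4, CCNF and CCNK were detected at 45.8%, 61.3% and 64.2%.

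Cyclin B1 was the highest of the 67 genes per exon length; in CPM, with no length scaling, CDK16 was above it (275.65 against 217.83). CCNB1 (chr5), cyclin B1, which takes CDK1 into mitosis, stood at 86.4, 84.7 and 84.3 RPKM in replicates 1, 2 and 3. These 3 values lie within a coefficient of variation of 1.28%, the smallest of the 49 genes that averaged 5 CPM or more. CCNB2, its Golgi-associated relative, stood at 10.1, 11.96 and 10.9 RPKM, so cyclin B1 made up 88.5% ± 0.934 (SD, n = 3) of the summed B cyclins. The log2 ratio of CCNB1 to CCNB2 was 2.94 ± 0.13, or 7.69-fold. It was 1.81 with only the exon length outside other spans, since 54.6% of CCNB2 exons lie inside a sense-overlapping gene. That alternative still divides all reads of a gene by the shorter length, so any counted reads from overlapped exons raise the level. Ratios passed the replicate spread if their sign was shared by 3 of 3 libraries and their mean was over 2 SD from 0, as here. Where 1 library was left out, the sign and the SD came from the other 2 libraries alone. With 3 libraries an exact two-sided sign-flip test cannot give a p below 0.25, so no p is given for ratios.

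CCNA2, the cyclin A of S phase and G2, stood at 24.1, 27.9 and 30.3 RPKM, and with CCNA1 at 0 it supplied all measured cyclin A. CCNF, cyclin F, a substrate receptor of an SCF ubiquitin ligase that binds no CDK, stood at 12.8, 9.37 and 8.77 RPKM.

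Cyclins D1 and D3 did not differ beyond their replicate spread. CCND1 (chr11:69641087-69654474), cyclin D1, stood at 36.1, 31.9 and 35.5 RPKM. CCND3 (chr6), cyclin D3, stood at 43.05, 32.6 and 32.1 RPKM, and the ranges of these genes overlap. Cyclin D1 was 45.6%, 49.5% and 52.5% of the summed D cyclins, and the log2 ratio of CCND1 to CCND3 was -0.05 ± 0.20 (SD, n = 3), within the replicate spread. Which is the higher turns on length: the ratio was 0.41 with the exon length outside other spans, since 28.96% of CCND1 exons lie inside LTO1, and -1.16 with the longest transcript, and each of these passed the spread. The value of 0.41 still includes any reads counted in the overlapped exons.

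CCNE1, cyclin E1, the partner of CDK2 at entry into S phase, stood at 12.7, 8.78 and 8.94 RPKM. CCNE2, cyclin E2, had 51, 131 and 196 reads, or 0.427, 1.10 and 1.28 RPKM. The E1 value exceeded the E2 value in each library, 10.6-fold on average (log2 ratios 4.598, 2.89 and 2.71), past the replicate spread. The size was less settled: the log2 ratio was 2.80 without replicate 1, 2.74 with no length scaling and 2.54 with a pseudocount of 1. Of CCNE2 exons 50.2% lie inside other genes, and with the remaining exon length the ratio was 2.48.

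CDK4 was the highest per exon length of the 3 cell-cycle kinases with reads, in each library. CDK4 (chr12:57747727-57756013, minus strand), the partner of D cyclins, stood at 54.6, 36.8 and 38.0 RPKM. CDK6 (chr7:92604921-92836594, minus strand), its close relative, stood at 3.62, 12.2 and 12.6 RPKM. Per exon length CDK4 was the higher in each library, but replicate 1 lies far from the others: CDK6 was 6.21% of the summed CDK4 and CDK6 there and 24.8% and 24.9% in replicates 2 and 3. The log2 ratio of CDK6 to CDK4 was -2.35 ± 1.32, which did not pass the replicate spread. It passed without replicate 1 (-1.59), with GC correction (-2.36 ± 0.73), with the longest transcript (-2.88) and with exon length free of other genes (-3.22). The order rests on length: in CPM, CDK6 was above CDK4 in replicates 2 and 3 (149.1 against 116.7, and 154.6 against 120.5), and the ratio with no length scaling was -0.42 ± 1.34, which did not pass.

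CDK1 (chr10), the mitotic kinase, had the largest spread of the 49 genes, with 394, 1759 and 2864 reads, or 3.69, 16.5 and 20.9 RPKM. Replicate 1 was 19.7% of the mean of replicates 2 and 3, although the level of its partner CCNB1 there was 102% of theirs. CDK1 transcripts have a GC content of 37.0% and CCNB1 transcripts 43.2%.

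Of the 8 inhibitor genes 5 were detected. CDKN1A (chr6:36676460-36687339), which encodes p21, an inhibitor induced by p53, was the highest at 55.7, 40.8 and 37.3 RPKM. CDKN1B, which encodes p27, stood at 18.5, 24.9 and 25.8 RPKM. The p21 gene exceeded the p27 gene in each library, but the log2 ratio of 0.94 ± 0.56 did not pass the replicate spread; it passed without replicate 1 (0.62 ± 0.13), with GC correction (0.94 ± 0.41) and with the longest transcript (1.29 ± 0.57).

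Of the INK4 genes only CDKN2C and CDKN2D had reads. CDKN2C, which encodes p18, stood at 30.0, 25.4 and 26.2 RPKM. CDKN2D, which encodes p19, stood at 15.8, 13.8 and 11.9 RPKM. The CDKN2C level was above the CDKN2D level in each library (log2 0.98 ± 0.14, past the spread, and 2.12 with no length scaling), and it held 66.4% ± 2.11 of the summed INK4 level as measured, with CDKN2A and CDKN2B at 0. CDKN3, a phosphatase that removes an activating phosphate from CDKs, stood at 5.52, 11.0 and 12.2 RPKM.

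**Figure D3:**
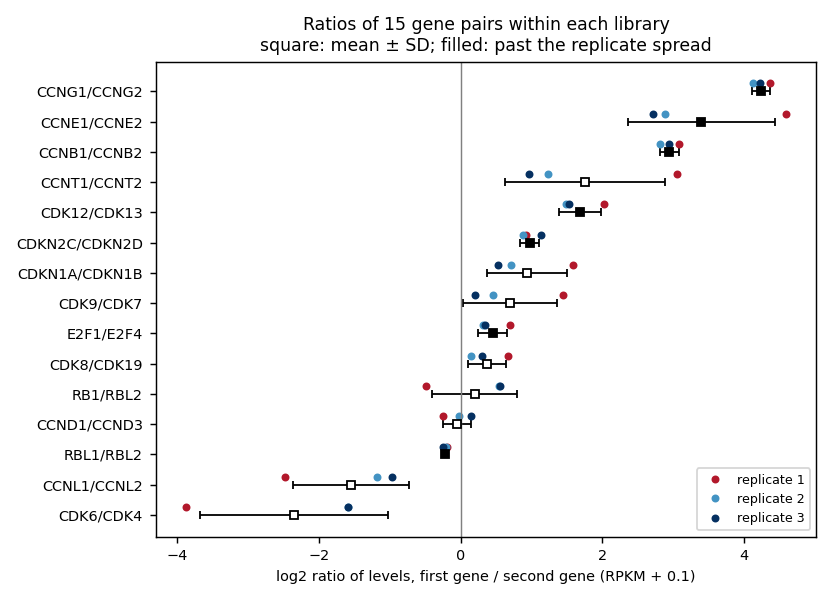
Each row is 1 of 15 gene pairs, with the log2 ratio of levels (RPKM + 0.1) in each library as a coloured point and the mean ± SD as a square, filled where the ratio passed the replicate spread. Replicate 1 lies away from the other libraries for CDK6/CDK4, CCNT1/CCNT2, CCNL1/CCNL2 and CCNE1/CCNE2, and the 3 points coincide for RBL1/RBL2 near -0.21.

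The pocket proteins, which hold E2Fs in check, were all detected. RB1, the retinoblastoma gene, stood at 3.23, 10.6 and 11.6 RPKM, RBL2 (p130) at 4.58, 7.27 and 7.88 RPKM and RBL1 (p107) at 3.99, 6.31 and 6.64 RPKM. In replicate 1 RB1 was the lowest of the family and in replicates 2 and 3 the highest, so the log2 ratio of RB1 to RBL2 was -0.49, 0.54 and 0.55 and did not pass the spread. Without replicate 1 it was 0.54 and passed. Scaled to exon length that no other gene spans, it was -0.086. The ratio of RBL1 to RBL2 was small and steady, at -0.20, -0.20 and -0.24 (mean -0.21 ± 0.03), and passed. With GC correction its SD was 0.264 and it no longer passed. All 3 genes were lowest in replicate 1, where their sum was 11.8 RPKM against 24.2 and 26.1.

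E2F1 and E2F4 were the highest of the E2F factors. E2F1 (chr20), the archetypal activator, stood at 79.95, 50.7 and 48.9 RPKM. E2F4 (chr16), which works with the pocket proteins as a repressor in resting cells, stood at 49.4, 40.7 and 38.4 RPKM. E2F1 held 44.7% ± 5.09 and E2F4 32.6% ± 1.183 of the summed level of the family (SD, n = 3). E2F1 was above E2F4 in each library (log2 0.45 ± 0.21, past the spread), though the ratio was -0.00093 with the longest transcript as length and -0.06 with no length, so the order rests on the length chosen. Without replicate 3 the ratio was 0.50 ± 0.27 and did not pass.

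The atypical repressor E2F7 stood at 11.2, 13.8 and 13.4 RPKM and the activator E2F3 at 7.93, 8.58 and 9.42 RPKM. E2F6, a repressor that needs no pocket protein, stood at 4.28, 4.10 and 3.90 RPKM, with 12.3% of its 50-base words shared with other genes, mainly its pseudogenes. E2F2, the remaining activator, had 630, 318 and 406 reads, or 4.25, 2.15 and 2.14 RPKM, and replicate 1 was 198% of the other libraries' mean, the highest such share of the 49 genes. E2F5, a relative of E2F4, stood at 0.944, 1.07 and 1.12 RPKM with 43.3% of its exons inside other genes.

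E2F genes are themselves textbook targets of E2F. The RefSeq promoter table (GRCh38.p14) held 84 windows for 60 of the 67 genes, some with several starts. Each window also holds 50 bases after its start, which were not searched for any motif. The 250 bases before each start were searched on both strands for an E2F core, spelled TTCCCGC or TTCGCGC or TTGCCGC or TTGGCGC. It was in 4 of the 7 E2F windows (57.1%), in 15 of all 84 member windows (17.9%) and in 10.9% of the 35116 windows of the table. The 4 E2F windows with a core are shown for the 200 bases before the start, on the gene's strand, with the matched letters in capitals. Matches begin 33 and 19 bases before the E2F1 start, 41 before that of E2F2, 53 and 24 before that of E2F3, and 176 and 133 before that of E2F7. The stretches are chr20:33686386-33686585 (minus), chr1:23531234-23531433 (minus), chr6:20401679-20401878 (plus) and chr12:77065570-77065769 (minus).
E2F1: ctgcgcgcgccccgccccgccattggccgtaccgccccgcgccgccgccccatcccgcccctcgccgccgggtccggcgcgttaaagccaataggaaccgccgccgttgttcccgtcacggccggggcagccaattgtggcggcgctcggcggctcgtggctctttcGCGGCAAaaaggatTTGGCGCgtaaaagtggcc
E2F2: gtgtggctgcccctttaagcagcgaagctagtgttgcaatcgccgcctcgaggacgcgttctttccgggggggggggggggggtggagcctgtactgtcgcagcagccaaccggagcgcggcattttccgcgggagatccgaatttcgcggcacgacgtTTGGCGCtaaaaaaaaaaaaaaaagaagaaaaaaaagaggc
E2F3: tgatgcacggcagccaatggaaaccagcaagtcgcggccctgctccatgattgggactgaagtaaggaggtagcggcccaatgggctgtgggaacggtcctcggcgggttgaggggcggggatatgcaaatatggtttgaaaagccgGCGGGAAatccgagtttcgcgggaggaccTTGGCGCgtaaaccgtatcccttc
E2F7: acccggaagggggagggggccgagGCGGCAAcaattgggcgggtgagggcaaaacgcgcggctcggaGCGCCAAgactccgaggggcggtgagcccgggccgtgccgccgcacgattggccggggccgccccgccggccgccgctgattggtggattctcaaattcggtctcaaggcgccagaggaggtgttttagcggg

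A match describes letters only, and none of these libraries measured binding. Levels of the 4 genes ranged from 2.85 ± 1.22 RPKM for E2F2 to 59.9 ± 17.4 for E2F1. E2F4, at 42.9 ± 5.80 RPKM, and E2F6 have no such match in the 250 bases before their starts. A second window of E2F3, not shown, has none there either, and E2F5 and E2F8 have no window.

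The cell cycle homology element of mitotic genes, searched as TTTGAA on both strands, was in 9 of the 84 member windows (10.7%) and in 13.3% of all windows. CDK1 has windows for 2 starts, and the other window, not shown, holds a further match. The window of CDK1 with matches 69 and 13 bases before the start and that of CCNB2 (29 bases before it) are shown for the 100 bases before the start, at chr10:60778378-60778477 and chr15:59105046-59105145 on the plus strand. These mitotic partners were picked for their different replicate patterns, and whether the letters bear on those patterns was not tested. CCNB1 and CCNA2 have no TTTGAA in the 250 bases before the starts of their windows. The interferon-gamma activated site, searched as TTCNNNGAA, was in 2 member windows, those of CDKN3 and RB1 (2.38%, against 6.57% of all windows). The only RB1 window, chr13:48476200-48476499 on the plus strand, lies inside the gene, whose annotated start is at 48303726. The bases before that annotated start were not searched.
CDK1: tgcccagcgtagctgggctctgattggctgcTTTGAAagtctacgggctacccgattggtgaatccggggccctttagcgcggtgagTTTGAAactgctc
CCNB2: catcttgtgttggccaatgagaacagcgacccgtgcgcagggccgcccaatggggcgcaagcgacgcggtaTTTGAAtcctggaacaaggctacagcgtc

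**Figure D4:**
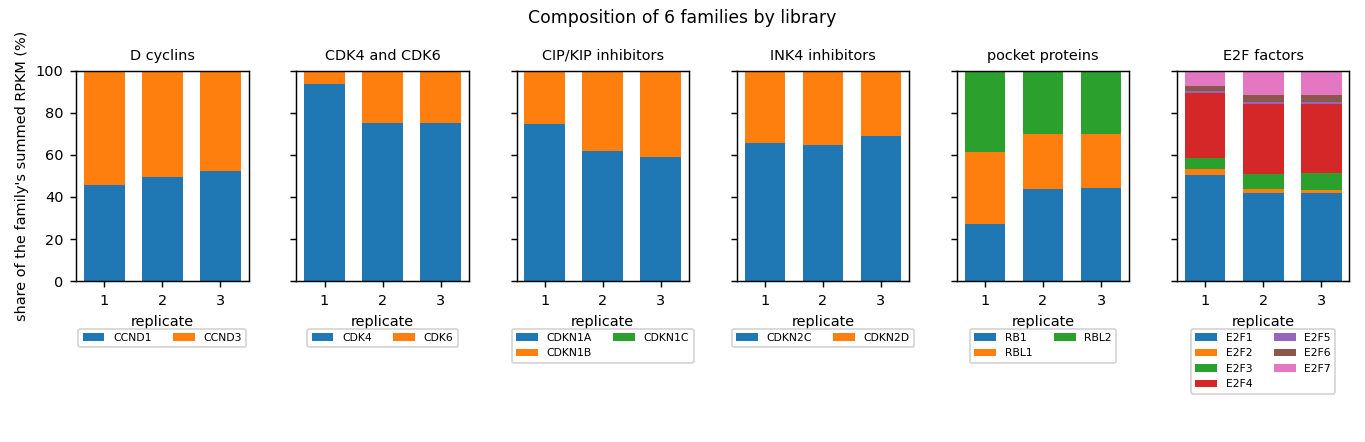
Stacked bars give the share of each family's summed RPKM (%) held by each member in replicates 1, 2 and 3, with its own colour key under each panel; genes at 0 are not drawn. CDK6 takes 6.21% in replicate 1 against 24.8% and 24.9%, while CCND1 and CCND3 share the D cyclins almost evenly in each library.

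Of the 17 CDKs outside the core cell cycle set 15 were detected. CDK16, a kinase of the PCTAIRE group that cyclin Y activates, was the highest of them at 50.4, 39.8 and 36.5 RPKM. CDK9, the kinase of the elongation factor P-TEFb, stood at 20.6, 16.0 and 14.7 RPKM. CDK7, which activates other CDKs and phosphorylates RNA polymerase II within TFIIH, stood at 7.48, 11.7 and 12.8 RPKM, and the log2 ratio of CDK9 to CDK7 (0.70 ± 0.66) did not pass the spread, but did with GC correction (0.70 ± 0.16).

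CDK12 and CDK13, which pair with cyclin K, differed. CDK12 stood at 10.9, 10.6 and 10.7 RPKM, a coefficient of variation of 1.60%. CDK13 stood at 2.61, 3.68 and 3.65 RPKM, and CDK12 exceeded it by 1.68 ± 0.29 on the log2 scale, past the spread (1.01 ± 0.30 with the longest transcript and 0.74 ± 0.30 with no length scaling). The Mediator kinases CDK8 and CDK19 were closer. CDK8 stood at 3.87, 4.85 and 5.29 RPKM. CDK19 stood at 2.41, 4.36 and 4.27 RPKM, the lowest in replicate 1, and the ratio of CDK8 to CDK19 (log2 0.37 ± 0.26) did not pass. It passed with CDK8 higher under GC correction (0.37 ± 0.14) and without replicate 1 (0.23 ± 0.11), and with CDK19 higher under no length scaling (-0.70 ± 0.27). CDK17, a relative of CDK16, stood at 2.1, 3.87 and 4.58 RPKM, lowest in replicate 1. The 3 lowest detected CDKs were CDK15, CDK18 and CDK20, which are less studied. CDK15 stood at 0.468, 1.35 and 1.76 RPKM. CDK18 stood at 0.712, 0.738 and 0.694 RPKM. CDK20 stood at 0.566, 0.566 and 0.527 RPKM, and only CDK15 of these had replicate 1 far below the others.

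Of the 16 cyclins outside the A, B, D, E and F types 11 were detected. CCNI, cyclin I, was the highest at 58.2, 43.4 and 36.9 RPKM. CCNG1, cyclin G1, a target of p53, stood at 24.3, 38.3 and 40.1 RPKM. CCNG2, cyclin G2, stood at 1.08, 2.104 and 2.05 RPKM, and CCNG1 exceeded it 18.9-fold (log2 4.24 ± 0.12), the largest ratio of the 15 pairs and past the spread. The log2 ratio was 3.04 with no length scaling and 3.67 with a pseudocount of 1. CCNQ, the activator of CDK10, stood at 29.6, 25.3 and 23.0 RPKM and CDK10 at 5.81 ± 0.283 RPKM. Cyclin Y (CCNY) stood at 12.2 ± 1.67 RPKM, beside its kinase CDK14 at 6.67 ± 1.35 RPKM. Cyclin K (CCNK) stood at 1.46 ± 0.221 RPKM, with 64.2% of its exons inside CCDC85C, and CDK5, a kinase best known in neurons, at 6.55 ± 0.793 RPKM.

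Of the P-TEFb cyclins, CCNT1 stood at 5.43, 6.29 and 5.71 RPKM. CCNT2 had 140, 643 and 905 reads, or 0.568, 2.61 and 2.86 RPKM, and replicate 1 was 20.8% of the mean of the others. Their log2 ratio was 1.75 ± 1.13 and did not pass the spread. The splicing-linked cyclins CCNL2 (11.7, 14.6 and 15.2 RPKM) and CCNL1 (2.02, 6.38 and 7.73 RPKM) differed by a log2 of -1.54 ± 0.82 for CCNL1 to CCNL2, which did not pass either. Without replicate 1 these ratios were 1.11 ± 0.19 and -1.07 ± 0.15, and both passed, as they did with GC correction (1.77 ± 0.83 and -1.55 ± 0.13). The ratio of CCNL1 to CCNL2 also passed with a pseudocount of 1 (-1.35 ± 0.64).

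In all, 20 pairs were fixed by role and 15 could be measured, of which 7 passed the replicate spread and 8 did not. The 5 unmeasured pairs each hold a gene at 0: CCND2, CCNA1, CDK2, CDKN2A with CDKN2B, or E2F8. Without replicate 1, 13 pairs passed, and with the GC trend removed 12 did.

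The difference of replicate 1 within the family followed the GC content of the transcripts. Of the 49 genes averaging 5 CPM or more, 9 had a replicate 1 value below 50% of the mean of replicates 2 and 3 (18.4%, against 13.7% of 9095 protein-coding genes). More than 2-fold above that mean were 0 of the 49 genes and only 4 of the 9095. The 9 below 50% were CDK1, CCNT2, CCNL1, RB1, CDK6, CDK15, CCNH, CDKN3 and CDK17, at 19.7% for CDK1 to 49.7% for CDK17. The next in order, CCNG2, stood at 51.9%. Replicate 1 was the lowest of the 3 libraries for 26 of the 49 genes (41.8% of protein-coding genes) and the highest for 23 (52% of protein-coding genes).

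Ordered by GC content, the 17 lowest genes, between 35.2% and 42.8% GC, had a median log2 ratio of replicate 1 over the others of -0.94, and 17 of 17 were below 0. The 16 genes between 51.9% and 62.5% GC had a median of 0.41, and 16 of 16 were above 0. The 16 between these, from 43.1% to 50.8% GC, had a median of -0.18. The same counts were not made for all protein-coding genes in these GC ranges. Across the 49 genes Spearman's rho of the replicate 1 ratio with GC content was 0.819 and Pearson's r 0.772, against 0.778 and 0.681 across the 9095 protein-coding genes. The trend was thus not particular to these genes, and all points share the same 3 libraries. Without the 2 genes farthest in GC content (E2F1 and CDKN2D) rho was 0.812.

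**Figure D5:**
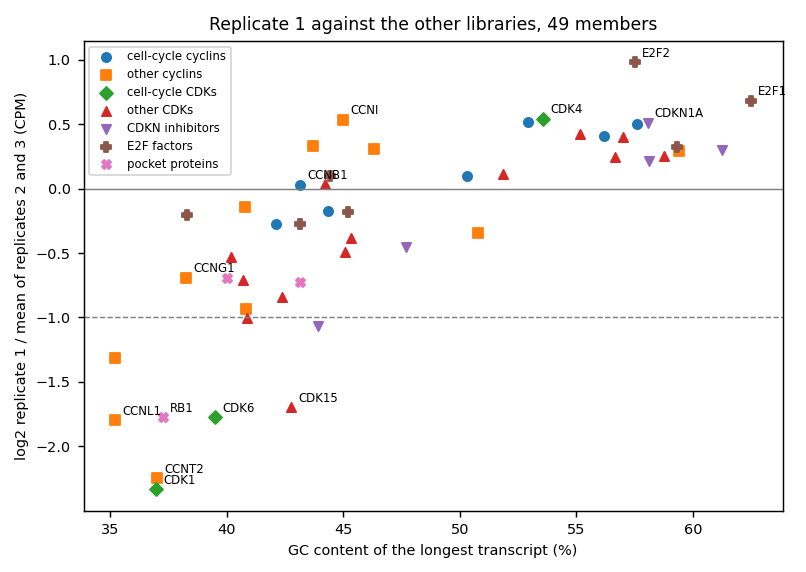
Each point is 1 of the 49 genes averaging 5 CPM or more, with the GC content of its longest transcript (%) on the x axis and on the y axis its log2 replicate 1 level over the average of the other libraries, marked by role. The 17 genes lowest in GC lie below 0 and the 16 highest above it, with CDK1 at -2.33, and the dashed line marks 50%.

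The 10 most variable of the 49 genes were these 9 and E2F2, with coefficients of variation from 36.3% for CDK17 to 65.3% for CDK1. E2F2, at 57.5% GC, was the only one of the 10 with its highest value in replicate 1. After the trend with GC content had been removed, 3 of the 9 were still below 50%: CDK1, CCNT2 and CDK15, at log2 ratios of -1.13, -1.06 and -1.40. CDK6 lay just inside that limit at -0.996 and RB1 was at -0.63. Replicates 2 and 3 differed by more than 2-fold for 0 of the 49 genes, with the largest difference at 0.38 on the log2 scale (CDK15). The source of the difference in replicate 1 was not tested.

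Genes that act on these kinases and E2Fs were nearly all present. Of 26 regulators and partners 25 were detected, against 51.4% of all protein-coding genes. The median over all 26 was 22.5 RPKM, against 0.482 RPKM for all protein-coding genes and 6.09 RPKM for the detected ones. The replication clamp PCNA was the highest at 211, 196 and 210 RPKM, followed by the CDK subunit CKS2 at 125, 167 and 178 RPKM and the MuvB partner MYBL2 at 200, 125 and 117 RPKM. The E2F dimer partner TFDP1 stood at 62.9 ± 5.32 RPKM and its relative TFDP2 at 2.00 ± 0.117. MNAT1, an assembly factor of the CDK7 complex, stood at 2.13 ± 0.582 RPKM beside cyclin H (CCNH), the cyclin of that complex, at 0.995, 2.27 and 2.74 RPKM. The lowest was LIN37, listed at 0 reads in each library and wholly inside other genes' spans, and the lowest above it were LIN9 at 1.59 ± 0.819 and TFDP2. The proliferation marker MKI67 stood at 34.6, 56.5 and 65.5 RPKM and TOP2A at 10.48, 36.3 and 45.4 RPKM, so replicate 1 was the lowest for these, at 56.7% and 25.6% of the others' mean. The list as a whole did not share this and lay near all protein-coding genes averaging 5 CPM or more. Its median log2 ratio of replicate 1 over the others was 0.13, against 0.083 for those genes. Of its 25 genes 3 were below 50% (TOP2A, LIN54 and LIN9), against 13.7% of those genes, and CDT1 and MYBL2 stood at 165% each.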

How the data were processed

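Poly(A) RNA of 3 libraries was sequenced on an Illumina HiSeq 3000 after a directional kit, per the labels' protocols. The submitters' processing notes name FastQC, cutadapt 1.18, HISAT2 2.1.0, featureCounts 2.0.0 and the build hg38. Which annotation was counted, and with what strand rule and options, is not given in the sources used here. Whether the counts kept reads of overlapping genes on opposite strands apart is therefore not known here. The deposited signal values are gene read counts that the authors divided by 1 size factor per library. The factors recovered from the values' steps are 0.946, 0.971 and 1.24, and 100% of the values above 0 came out as whole reads within 0.01 read. 0 columns lacked a sample.

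From the recovered reads, edgeR 4.0.16 TMM factors gave CPM. RPKM used the union of GENCODE 29 exons, which matched 58337 of 60605 gene IDs (96.3%). Ratios used log2(RPKM + 0.1). Pairs were left unmeasured if a gene had 0 reads in any library or stayed under 10 reads throughout. The GC trend was removed by lowess (fraction 0.3). The replicate 1 ratio, the GC correction and the pair rule were run on simulated data. The read recovery had only a check of its smallest step, and the overlap and promoter steps had none. Genes with 2 reads far outnumbered those with 1 (1621 against 269 in replicate 1), so reads are not independent molecules, and floors cover counting error only. The labels call the libraries biological replicates. With 1 group there is no test between groups and no p-value. The members, pairs and gene lists were chosen with earlier results of these data known. Any member could be named. Values by library were given for both genes of each pair, the 3 highest and 3 lowest of each role group and the 10 most variable members; of the partner list, the 3 highest and lowest were named, and TFDP1, MNAT1, MKI67, TOP2A, LIN54 and CDT1 were chosen after their values were seen. Alternatives were another scaling (DESeq2 1.42.0 size factors, total reads), GC correction, other lengths, pseudocounts and detection limits, and leaving out each library. The exon length outside other spans divided all reads of a gene, including any in overlapped exons. It can therefore overstate levels and shift ratios and the median: for CDK11A it gave 115.21 RPKM in place of 0.147.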

Additional observations from a re-analysis of the deposited data

How the results depend on the processing

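The count of 52 detected genes was 55 at 0.1 CPM, 44 at 10 CPM and 54 at 10 reads. Of 150 pair ratios recomputed under an alternative, 125 kept their direction and their side of the replicate spread, 17 passed it that had not, 2 no longer passed and 6 reversed. The count of pairs past the spread, 7, was 12 with GC correction and ran from 6 to 13 when 1 library was left out, with 13 without replicate 1. Leaving out 1 library left 2 libraries for the sign and the SD. Genes below 50% in replicate 1 numbered 3 with GC correction. The median level of 5.81 RPKM was 9.40 with the longest transcript and 27.6 CPM with no length scaling. Among genes under 80% inside other spans the median was 8.48 RPKM. The median uses no pseudocount. Scaling to exon length that no other gene spans gave 9.10 RPKM, but over fewer genes. CDK2, CDKN2A, CDKN2B, CCND2, CDK3, E2F8 and CCNJ, all at 0 reads, have no such length and were left out. The rise from 5.81 to 9.10 is therefore not an effect of length alone. The reversed log2 ratios were CCND1/CCND3 at 0.41 and RB1/RBL2 at -0.086 with the exon length outside other spans, E2F1/E2F4 at -0.00093 with the longest transcript and -0.064 with no length scaling, and CDK8/CDK19 at -0.70 with no length scaling. CCND1/CCND3 ran from -0.14 to 0.057 when 1 library was left out. No paired analysis was possible because the libraries form 1 group. Depth limits the genes under about 10 reads, and 3 libraries limit every spread.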
